A study of Mus musculus with 21 samples.

Results

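Astrocytes take up glutamate, buffer potassium, hold the water channels that face blood vessels and are joined to each other by gap junctions. In the forebrain they arise from radial glia after most neurons have been born, when cytokine (JAK-STAT), BMP and Notch signals and the NFI factors open glial genes that neurogenic factors hold closed. Several proteins used as astrocyte markers are also made by radial glia, which share much of their gene expression with astrocytes. Expression was followed here for 9 astrocyte genes: Gfap, Aqp4, Aldh1l1, S100b, Slc1a2, Slc1a3, Gja1, Aldoc and Sparcl1. They were chosen as a list of established astrocyte markers, and all 9 were found among the 40339 gene symbols of the linc-Brn1b table and the 42342 symbols of the linc-Sox2 table.

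RNA was sequenced from knockout mice in which a lacZ cassette replaces a long intergenic noncoding RNA (lincRNA), and from wild-type animals. The linc-Brn1b strain was sampled at embryonic days E13.5 and E15.5, when the telencephalon was taken, and at postnatal day 7 (P7), when the brain was taken whole. The strain labelled linc-Sox2, which the study calls Peril, was sampled as whole brain at E18.5. Lung of the strain labelled linc-Foxf1a (Fendrr in the study) at E14.5 served as a tissue outside the brain. Each genotype (+/+ and -/-) had 2 libraries per tissue and age in the labels, except linc-Brn1b-/- at E15.5 with 3. The study's results section gives 2 there, and which of the 3 entered the pooled value is unknown. The alleles were made in hybrid 129S6SvEv and C57BL/6N embryonic stem cells, and the founders were bred to C57BL/6J mice. Knockout animals carry the deletion in all their cells rather than in astrocytes alone, and no cell type was sorted.

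The files give 1 value a group in FPKM (fragments counted per length of transcript and per number of mapped fragments), pooled over the libraries by the authors. No value per library and no read depth is given, the authors' own test columns were not used, and every difference below describes a pair of pooled values without a test. The targeted lincRNA linc-Brn1b was listed at 0 FPKM in the 3 knockout groups and at 0.799 to 2.50 FPKM in the 3 wild-type groups. Y-linked genes were lower in the knockout at E13.5 (median difference -3.72 over 4 genes) and higher in the knockout at E15.5 (2.38) and P7 (2.36), and they were higher in the linc-Sox2 knockout at E18.5 (2.12 over the list with Xist). The sex of the pooled animals therefore differed with genotype in every brain comparison, and between E13.5 and E15.5 within each genotype, and cannot be told apart from either.

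Levels of the 9 genes in the wild-type embryonic telencephalon formed a low and a high set. Gfap, the intermediate filament of mature and reactive astrocytes, was at 0.317 FPKM in linc-Brn1b+/+ telencephalon at E13.5 and at 0.431 FPKM at E15.5. Aqp4, the water channel of astrocyte endfeet, was at 0.459 and 0.313 FPKM, and S100b, a calcium-binding protein of glia, at 0.0424 and 0.129 FPKM. These 3 genes stayed under 1 FPKM in all 4 telencephalon groups, so these markers of mature astrocytes were near 0 in the telencephalon at both ages, and folds between values of this size depend on the pseudocount.

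The other 6 genes were already at several FPKM or more in the telencephalon. Aldoc, the brain aldolase of glycolysis, was the highest at both embryonic ages, at 78.0 FPKM at E13.5 and 73.5 FPKM at E15.5. Slc1a3, the glutamate transporter GLAST that radial glia also make, was at 32.3 and 39.0 FPKM, and Sparcl1, a secreted matrix protein that promotes synapse formation, at 25.6 and 37.2 FPKM. Slc1a2, the glutamate transporter GLT-1 that clears most synaptic glutamate in the adult forebrain, was at 12.7 and 11.4 FPKM. The remaining pair went in opposite directions between the embryonic ages. Aldh1l1, an enzyme of folate metabolism, was at 3.71 FPKM at E13.5 and 10.5 FPKM at E15.5, whereas Gja1, the gap junction protein connexin 43, was at 40.0 and 9.49 FPKM.

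At P7 all 9 genes were well above 1 FPKM in both genotypes. Sparcl1 led with 492 FPKM in linc-Brn1b+/+ and 477 FPKM in linc-Brn1b-/- brain, followed by Aldoc at 163 and 190.5 FPKM and Slc1a3 at 148 and 134 FPKM. Gfap reached 101.3 FPKM in the wild type and 74.0 FPKM in the knockout. Aqp4 stood at 81.0 and 56.1 FPKM, and S100b was the lowest of the 9 at 22.1 and 16.04 FPKM. The order of the middle genes differed with genotype: in the wild type Gfap and Aqp4 were above Slc1a2 (67.7 FPKM) and Gja1 (66.1 FPKM), and in the knockout Slc1a2 (111 FPKM) stood above Gfap, Gja1 (68.6 FPKM) and Aqp4. Aldh1l1 was at 39.3 FPKM in the wild type and 19.4 FPKM in the knockout. Without values per library, it was not assessed which neighbours in these orders differ beyond the spread between animals.

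**Figure D1:**
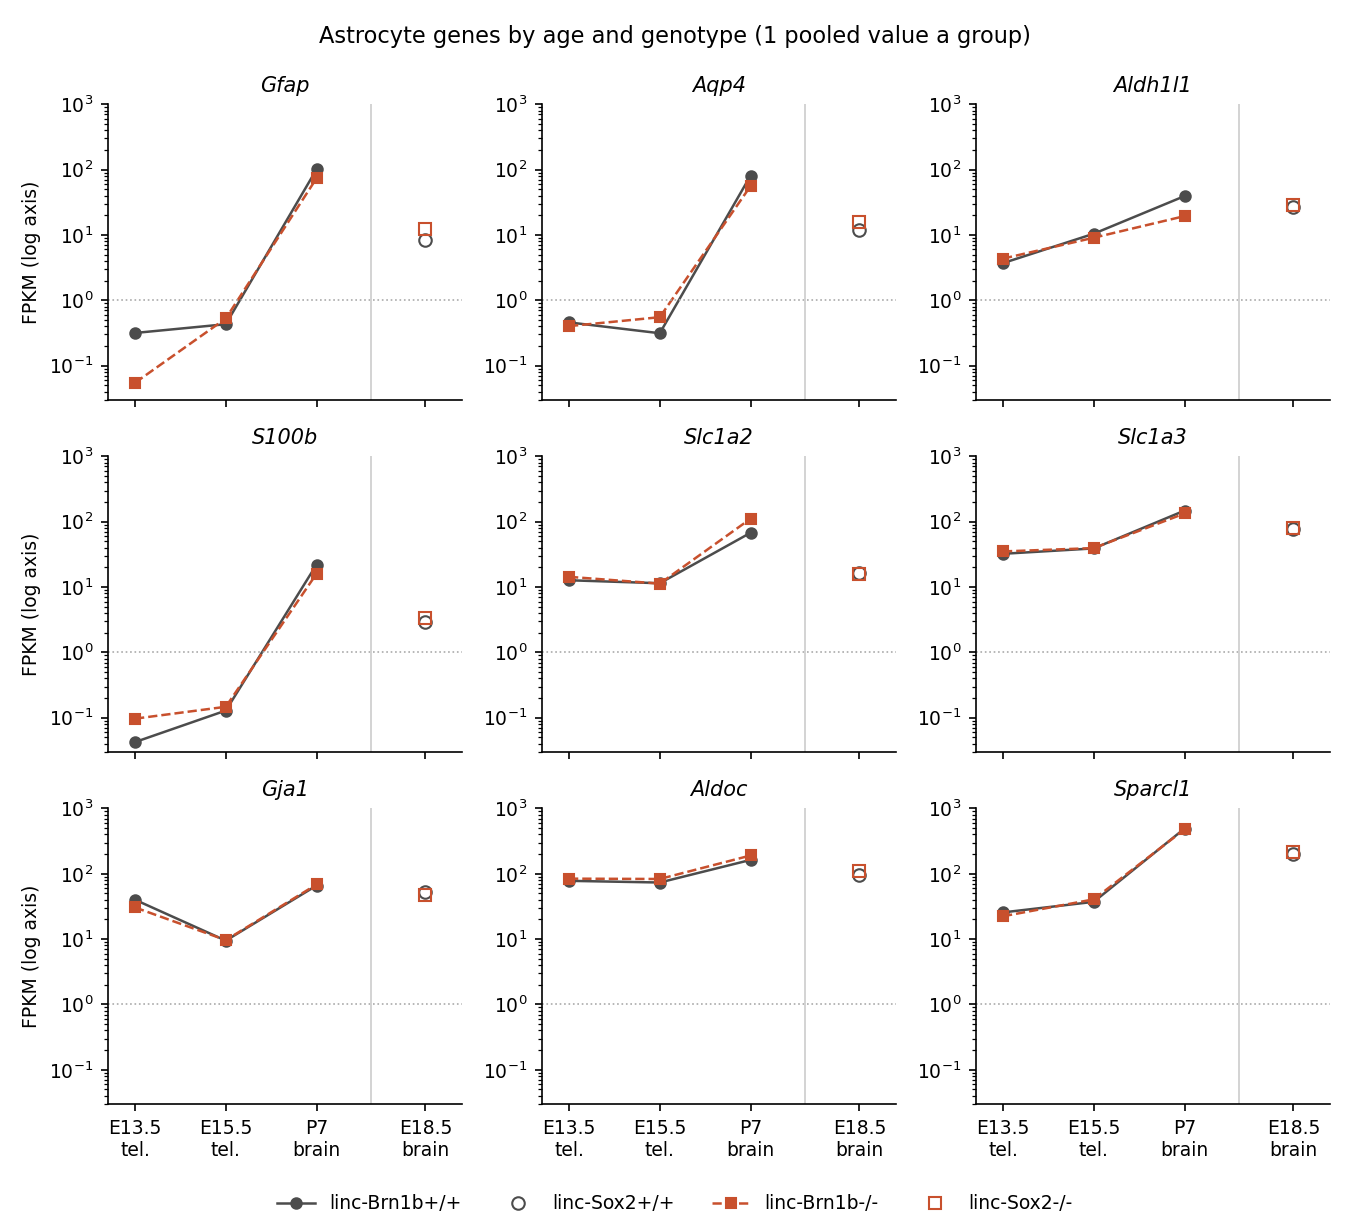
FPKM of each astrocyte gene on a log axis for linc-Brn1b at E13.5, E15.5 (telencephalon, tel.) and P7 (brain), with circles for wild type and squares for knockout, and in linc-Sox2 E18.5 brain to the right of the grey line (open symbols, a table normalized separately). The dotted line marks 1 FPKM. Gfap, Aqp4 and S100b lie under that line at both embryonic ages and above 15 FPKM at P7, and Gja1 is lowest at E15.5.

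Summed over the 9 genes, the level was 193 and 182 FPKM at E13.5 and at E15.5 in wild-type telencephalon and 1181 FPKM in wild-type P7 brain. The knockout sums of 191, 195 and 1147 FPKM followed the same course. Gfap, Aqp4 and S100b together made up 0.873 FPKM of the wild-type sum at E15.5 and 204 FPKM of it at P7, and in the knockout 1.23 and 146 FPKM. In bulk tissue, a change in the number of astrocytes and a change in RNA per astrocyte cannot be told apart.

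In lung, 5 of the 9 genes were at 1 FPKM or more in both groups. In linc-Foxf1a+/+ lung at E14.5, Sparcl1 was at 206 FPKM and Gja1 at 44.7 FPKM, and in linc-Foxf1a-/- lung at 190.2 and 45.6 FPKM. Slc1a3 was at 8.50 and 10.9 FPKM in lung, Aldoc at 2.87 and 3.65 FPKM and Aqp4 at 1.52 and 1.77 FPKM. Gfap, Aldh1l1, S100b and Slc1a2 were all under 1 FPKM in both lung groups. The lung table was normalized separately, so these levels stand only side by side with those of brain.

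To describe the course of the genes, ages were compared within each linc-Brn1b genotype as the later minus the earlier log2(FPKM + 1). A gene was counted where the mean of the pair of groups was at least 1 FPKM, and a gene is said to differ between ages where the difference reached 2-fold on this scale, which understates the change of low genes. Between E13.5 and E15.5, 2.15% of 13540 genes were higher and 1.99% lower at this fold in the wild type, and 3.23% and 1.47% of 13574 genes in the knockout. Of the 6 astrocyte genes counted in the wild type, Aldh1l1 was higher at E15.5 by 1.28 and Gja1 was lower, with a difference of -1.97 on the log2 scale. In the knockout Gja1 was lower, with a difference of -1.56, and the difference of Aldh1l1 was 0.92, under the fold. Sparcl1 differed by 0.52 in the wild type and 0.83 in the knockout, and the other 3 counted genes by -0.14 to 0.27 in the wild type and -0.32 to 0.17 in the knockout. Connexin 43 was thus the 1 astrocyte gene past the fold in both genotypes, and with a pseudocount of 0.1 in place of 1 Aldh1l1 was as well (1.05 in the knockout). Scaling the knockout groups to equal sums moved the median of all genes from -0.030 to -0.187 and the share of higher genes among those that differed from 68.7% to 42.1%, with Gja1 still lower. Its level at E15.5 was 14.4% of that at P7 in the wild type and 14.1% in the knockout, against 60.6% and 44.5% at E13.5.

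The gap junction genes that astrocytes use beside Gja1 were low at the same age. Gjb6 (connexin 30) was at 1.501 FPKM at E13.5, 0.0215 FPKM at E15.5 and 6.20 FPKM at P7 in the wild type, and Gjb2 (connexin 26) at 1.39, 0.00824 and 4.14 FPKM. Both are also made by the meninges, and the knockout values were 0.636, 0.00645 and 9.26 FPKM for Gjb6 and 0.489, 0.00561 and 3.68 FPKM for Gjb2. All 3 connexins were thus lowest at E15.5 in both genotypes.

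From E15.5 telencephalon to P7 brain, all 9 astrocyte genes were higher by at least 2-fold in both genotypes. This step goes from telencephalon to whole brain, so the age and the tissue dissected cannot be told apart, and it shares the E15.5 groups with the earlier step. Over all genes, 14.2% of 14155 were higher in the wild type and 15.7% of 14115 in the knockout. With the 1806 and 1901 genes that were lower, 27.0% and 29.2% differed in either direction. The differences ran from 1.14 (Aldoc) to 6.16 (Gfap) in the wild type, with a median of 2.68 beside a median of -0.101 over all genes counted. In the knockout they ran from 1.02 (Aldh1l1) to 5.62 (Gfap), with a median of 3.19 beside -0.098 over all genes. Gfap, Aqp4 and S100b were counted only through their P7 values.

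Gfap, Aqp4 and S100b, near 0 at E15.5, differed by 6.16, 5.96 and 4.36 in the wild type and by 5.62, 5.20 and 3.89 in the knockout, and the size and order of their differences depend on the pseudocount. As a plain ratio of wild-type FPKM, Aqp4 (258) stood above Gfap (235). Sparcl1 (3.69 and 3.52), Gja1 (2.68 and 2.71) and Slc1a2 (2.47 and 3.19) had smaller differences. Slc1a3 (1.89 and 1.73), Aldh1l1 (1.82 and 1.02) and Aldoc (1.14 and 1.18) had the smallest differences. As a share of its P7 level in the wild type, Aldoc was already at 45.1% at E15.5, Aldh1l1 at 26.6% and Slc1a3 at 26.4%, against 7.56% for Sparcl1.

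In linc-Sox2+/+ brain at E18.5, before birth, Gfap was at 8.50 FPKM, Aqp4 at 11.8 FPKM and S100b at 2.88 FPKM. Slc1a2 was at 16.6 FPKM, Gja1 was at 53.3 FPKM, Aldh1l1 at 26.6 FPKM and Sparcl1 at 201 FPKM. This is another strain in a table of its own, so no difference from the linc-Brn1b values was taken.

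Most other genes of astrocytes were also higher at P7. Of 47 further astrocyte genes, 39 were higher at P7 than at E15.5 in the wild type and 1 was lower, with a median of 1.98, and in the knockout 40 were higher and 1 lower, with a median of 2.07. The largest differences in the wild type were those of Gpr37l1, a receptor of glia (5.14), the lipase Pla2g7 (4.71), the lipid carrier Apoe (4.31) and the mitochondrial carrier Slc25a18 (4.24). Megf10, a receptor for engulfing debris and synapses, was the 1 gene lower in both genotypes (-1.01 and -1.27). Glul, glutamine synthetase, which converts the glutamate taken up by Slc1a2 and Slc1a3, differed by 1.54 in the wild type and 1.95 in the knockout. Kcnj10, the potassium channel Kir4.1 of endfeet, differed by 2.04 and 2.58, and Dtna, a dystrobrevin of the complex that anchors Aqp4, by 1.82 and 1.96.

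Partners and relatives of the 9 genes were described by function. Of 8 other genes of glutamate uptake, 3 were higher at P7 in the wild type and 4 in the knockout, led in the wild type by the neuronal transporter gene Slc1a6 (2.10) and the glutamine transporter gene Slc38a3 (1.80). Of 10 genes of the endfoot complex or of other aquaporins, 5 were higher in the wild type and 4 in the knockout. Of 7 other connexin and pannexin genes, 4 were higher and 1, Gjc1 (-1.47 and -1.86), was lower in each genotype. Among 9 other intermediate filament genes, 5 were higher and 3 lower in each genotype, the higher ones led by the neurofilament genes Nefh (3.57 in the wild type) and Nefl (3.07). Of 10 further relatives, 6 were higher and 1 lower in each genotype, among them S100a1 (3.58 in the wild type), S100a6 (2.93) and S100a13 (2.89), which belong to the family of S100b.

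Several markers of other cell types were also higher at P7. In the wild type, 8 of 10 genes of the oligodendrocyte lineage (median 3.24), 9 of 11 microglial genes (median 1.40) and 6 of 10 neuronal genes (median 1.15) were higher, and 1 neuronal gene was lower. Of 9 endothelial genes 2 were higher (median 0.41), and of 11 choroid plexus and ependymal genes 1 (median 0.36). Of 10 cerebellum and hindbrain genes, 4 were higher in the wild type (median 2.03), and in the knockout 1 was higher and 1 lower (median -0.23). Radial glial genes differed in the other direction, with 7 of 12 lower in the wild type and 8 of 12 in the knockout and none higher. Nes (-2.92) and Vim (-2.29), the intermediate filaments of radial glia, had the largest wild-type differences, at a step where the astrocyte filament gene Gfap differed by 6.16.

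**Figure D2:**
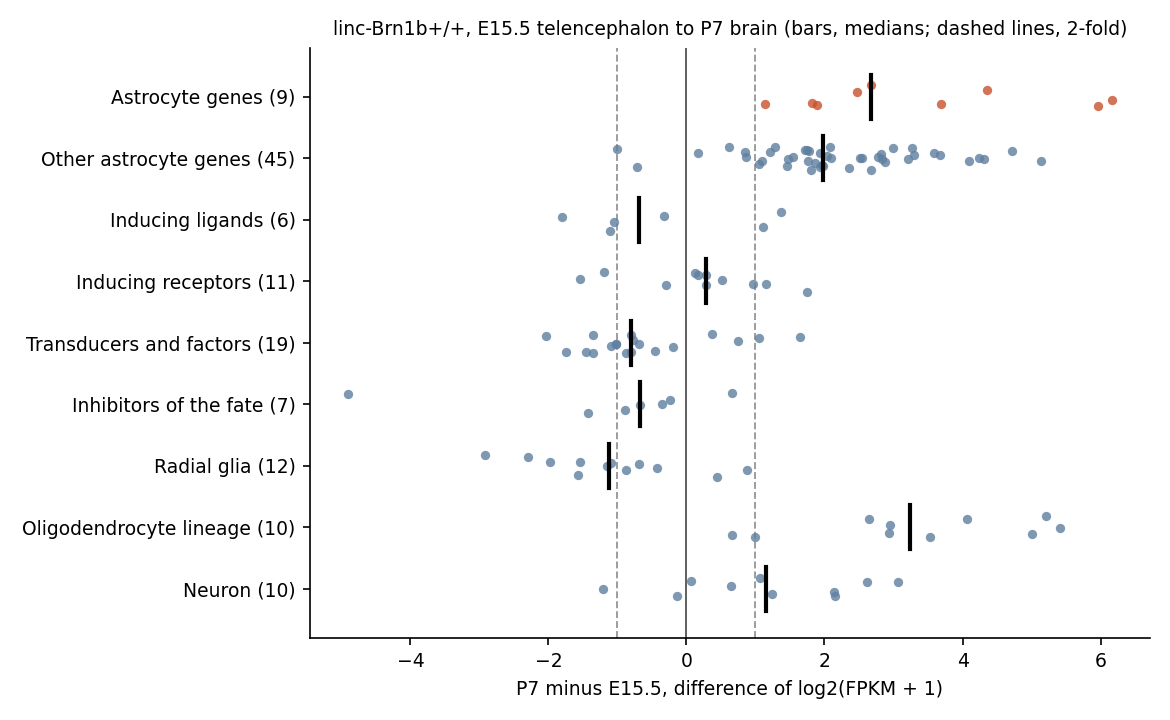
Difference of log2(FPKM + 1) between P7 brain and E15.5 telencephalon in linc-Brn1b+/+ mice, 1 point a gene with a mean of at least 1 FPKM (number in brackets). Black bars are medians and dashed lines mark 2-fold. The 9 astrocyte genes, in red, all lie to the right of the upper 2-fold line, while most genes of the transducer and radial glia lists lie to the left of 0.

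The signals that induce the astrocyte fate were then described by role. Of 10 ligands, Bmp4 (1.37) and Bmp7 (1.11) were higher at P7 in the wild type, and the Notch ligands Dll1 (-1.81) and Jag1 (-1.11) and the neuregulin Nrg1 (-1.05) were lower. The cytokines that act through JAK-STAT were scarce: Cntf stood at 1.05 FPKM at E15.5 and 0.941 FPKM at P7, Ctf1 at 1.33 and 0.852 FPKM, and Lif and Clcf1 under 1 FPKM in all 6 linc-Brn1b groups. In the knockout 2 ligands were higher and 1 lower.

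Of 11 receptors, Lifr, the shared receptor of these cytokines (1.16), and Egfr (1.74) were higher in the wild type, and Notch1 (-1.54) and Notch2 (-1.20) were lower. In the knockout no receptor was higher and 2 were lower. Among 19 transducers and transcription factors, 2 were higher and 8 lower in the wild type, and 1 was higher and 8 lower in the knockout. The kinase Jak1 (1.05) and the BMP target Id3 (1.65) were the 2 higher ones. Stat3 was at 9.03 FPKM at E15.5 and 11.97 FPKM at P7, a difference of 0.37. Factors that drive astrocyte genes in progenitors were lower at P7 or differed by less than the fold: Sox9 by -1.02, Nfia by -0.81, Nfib by -1.74, Rbpj by -2.04 and Hes5 by -0.69. Of 8 inhibitors of the fate, 2 were lower and none higher in the wild type, and 3 were lower and 1 higher in the knockout. The proneural factor Neurog2 was at 40.6 FPKM at E15.5 and 0.390 FPKM at P7, a difference of -4.90, and the DNA methyltransferase Dnmt1 differed by -1.42. Olig2, a factor of oligodendrocyte and motor neuron fate, was at 6.68 and 11.2 FPKM.

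Promoter sequence was read from RefSeq (GRCm38.p6) for 7 of the 9 genes, in 8 windows of 250 bases before and 50 bases after a start site. Motifs of the factors above were searched on both strands. The letters TTCNNNGAA, bound by STAT factors, were found in windows of 3 of the 7 genes, Gfap, Slc1a3 and Aldoc, and in 8.30% of all 32851 promoters. TTGGCA, which forms part of the site of NFI factors, was found for Aldoc and S100b and in 14.1% of promoters. GTGGGAA, bound by RBPJ, was found for Aldoc and in 6.38% of promoters, TGANTCA, bound by AP-1, for Gja1 and in 7.81%, and the E-box CANNTG for 6 of the 7 genes and in 72.3%. The match in Gfap begins 2 bases before the start site, that in Slc1a3 96 bases before it, and those in the Aldoc window 124 and 83 bases before it. A match is a run of letters and was not tested as a binding site.

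Shown are the windows with STAT letters and a window of the other glutamate transporter gene, Slc1a2. In this Slc1a2 window none of the motifs but the E-box was found. Windows were not matched to the mm9 gene starts, so whether this one holds the main start of Slc1a2 was not assessed. Capitals mark matches to the STAT, NFI, AP-1 and RBPJ letters.
Gfap (chr11:102897151-102897450, minus strand): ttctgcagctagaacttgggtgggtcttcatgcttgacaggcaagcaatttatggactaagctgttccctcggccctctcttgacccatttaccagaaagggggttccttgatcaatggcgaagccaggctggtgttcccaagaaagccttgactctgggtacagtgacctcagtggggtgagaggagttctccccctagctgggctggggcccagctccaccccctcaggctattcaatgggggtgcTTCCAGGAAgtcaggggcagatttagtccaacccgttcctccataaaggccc
Slc1a3 (chr15:8710758-8711057, minus strand): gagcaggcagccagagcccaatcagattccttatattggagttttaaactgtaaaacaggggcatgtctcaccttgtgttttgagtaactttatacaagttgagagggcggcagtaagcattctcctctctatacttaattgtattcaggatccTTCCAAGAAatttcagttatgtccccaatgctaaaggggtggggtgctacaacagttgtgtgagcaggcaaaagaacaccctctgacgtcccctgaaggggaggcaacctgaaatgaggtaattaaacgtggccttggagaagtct
Aldoc, downstream start (chr11:78323948-78324247, plus strand): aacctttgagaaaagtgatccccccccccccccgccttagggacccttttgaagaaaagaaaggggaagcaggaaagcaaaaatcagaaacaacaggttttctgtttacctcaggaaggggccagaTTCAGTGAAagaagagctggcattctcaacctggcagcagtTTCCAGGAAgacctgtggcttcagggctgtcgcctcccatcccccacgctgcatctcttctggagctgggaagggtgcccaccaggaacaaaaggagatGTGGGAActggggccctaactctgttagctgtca
Slc1a2 (chr2:102706188-102706487, plus strand): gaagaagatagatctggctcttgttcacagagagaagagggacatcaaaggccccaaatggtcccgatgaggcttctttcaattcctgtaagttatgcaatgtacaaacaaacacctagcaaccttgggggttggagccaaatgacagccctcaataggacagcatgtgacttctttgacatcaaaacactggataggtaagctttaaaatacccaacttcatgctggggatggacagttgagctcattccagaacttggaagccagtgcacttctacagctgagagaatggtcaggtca

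On mm9, the build of the files, GENCODE places Gfap on chromosome 11 between 102748650 and 102762226 and Aldoc on the same chromosome between 78136470 and 78141283. Slc1a3 lies on chromosome 15 (8584124 to 8660764), Slc1a2 on chromosome 2 (102498816 to 102630941) and Aldh1l1 on chromosome 6 (90436421 to 90550197). S100b and Gja1 are on chromosome 10 (75716598 to 75723904 and 56097106 to 56110225), Sparcl1 on chromosome 5 (104508130 to 104543107) and Aqp4 on chromosome 18. All are protein-coding genes of 2 to 23 exons, with longest coding transcripts from 1484 bp (S100b) to 11595 bp (Slc1a2). The tables hold lincRNA entries at the loci of Aqp4, Aldh1l1, Slc1a2 and Sparcl1, and S100b overlaps Dip2a on the other strand. The study names default options for alignment and counting and no strand setting, so reads of overlapping genes could have been split or shared. The 4 lincRNA entries were under 1 FPKM in every linc-Brn1b group.

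Genotypes were compared at each age as knockout minus wild type on the log2(FPKM + 1) scale, and a gene is said to differ where this reached 1.5-fold (0.585). At E13.5 none of the 9 genes differed, where 1.55% of 13511 genes were higher and 5.51% lower in the knockout. The 6 genes with a mean of at least 1 FPKM had differences from -0.38 (Gja1) to 0.18 (Aldh1l1), with a median of 0.11 beside 0.057 over all genes counted. Gfap was at 0.317 FPKM in the wild type and 0.0547 FPKM in the knockout, both under 1 FPKM, and its difference of -0.32 stands outside the count.

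Further astrocyte genes were lower in the E13.5 knockout: Cst3 (-1.26), Apoe (-1.07), Mt3 (-0.79) and Gjb6 (-0.61), 4 of 47, with a median of 0.04 over the 32 counted. Relatives of S100b were lower too, with differences of -1.80 (S100a10), -1.72 (S100a16), -1.18 (S100a6) and -1.02 (S100a13), as were the BMP targets Id1 (-0.92) and Id3 (-0.78). Short transcripts moved with this comparison: the 567 genes with a longest transcript under 1000 bp had a median difference of -0.63, against 0.06 for the 11391 longer ones, and genes lower in the knockout had a median length of 1051 bp beside 3262 bp for all genes counted. The longest transcripts of Cst3, Apoe and Mt3 are 860, 1386 and 538 bp, that of Gjb6 is 2105 bp, and those of the 9 astrocyte genes are 1484 bp or longer. Microglial and endothelial genes also had lower values in the E13.5 knockout. Of 11 microglial genes, C1qa (-0.91), C1qb (-0.61) and C1qc (-0.59) were lower, with a median of -0.31 over the 8 counted, and of 9 endothelial genes Cldn5 (-0.93) was lower, with a median of -0.37 over the 8 counted. The part of transcript length or of these cell types in the differences was not tested. Scaling the groups to equal sums moved the median of all genes by over 0.1, to 0.220, and the share of higher genes among those that differed from 21.9% to 59.3%, with none of the 9 astrocyte genes past the fold.

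At E15.5 the genotypes were close. Differences of the 9 genes ran from -0.18 (Aldh1l1) to 0.24 (Aqp4), with a median of 0.02 over the 6 counted beside 0.005 over all genes, and none reached the fold, where 0.200% of 13523 genes were higher and 0.274% lower in the knockout. Slc1a3 was at 39.0 FPKM in the wild type and 39.5 FPKM in the knockout, Gja1 at 9.49 and 9.66 FPKM and Slc1a2 at 11.4 and 11.3 FPKM. None of the 47 further astrocyte genes differed either. Choroid plexus genes were lower in the knockout (4 of 11, Ttr at 231 and 1.39 FPKM), and the part of this in the astrocyte values was not tested. Knockout levels of the 6 counted astrocyte genes were 86.9% (Aldh1l1) to 113% (Aldoc) of the wild type.

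At P7, Aldh1l1 and Slc1a2 differed in opposite directions. Aldh1l1 was at 39.3 FPKM in the P7 wild type and at 19.4 FPKM in the knockout, a difference of -0.98, and the knockout level was 49.4% of the wild type. Slc1a2 was at 67.7 and 111 FPKM, a difference of 0.71, and the knockout level was 164% of the wild type. Over all genes, 2.08% of 14178 were higher and 2.24% lower at this age, so that 48.2% of the genes that differed were higher (58.8% after scaling to equal sums, with Aldh1l1 and Slc1a2 again past the fold). Past the fold was 1 gene of 9 in each direction, and neither difference was set against the spread between animals here.

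The other 7 genes stayed within 1.5-fold at P7. Aqp4 (-0.52), Gfap (-0.45) and S100b (-0.44) had lower values in the knockout, at 69.3%, 73.0% and 72.5% of the wild type. Slc1a3 (-0.15), Sparcl1 (-0.04), Gja1 (0.05) and Aldoc (0.22) lay nearer to 0. The median of the 9 was -0.15 beside 0.013 over all genes. The pair of glutamate transporters lay on opposite sides of 0 at this age, with Slc1a3 at 90.4% of the wild type beside 164% for Slc1a2, after differences of 0.02 and -0.02 at E15.5.

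**Figure D3:**
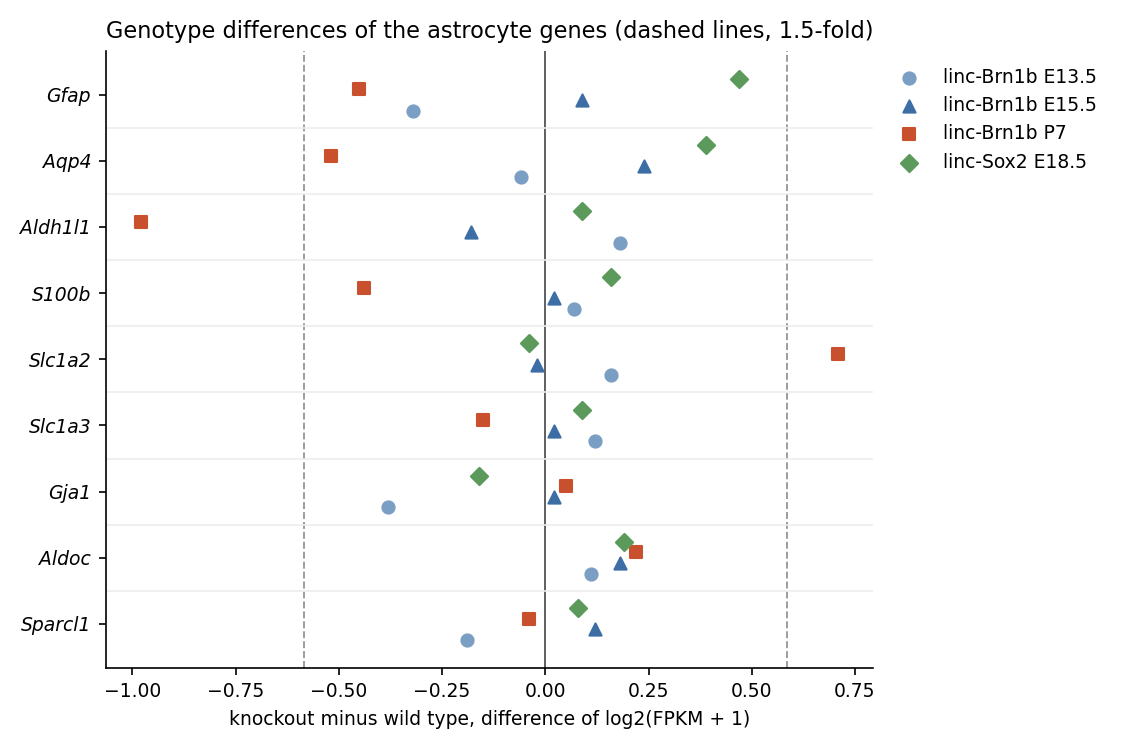
Knockout minus wild type difference of log2(FPKM + 1) of each astrocyte gene for linc-Brn1b at the 3 ages and for linc-Sox2 at E18.5, 1 point a comparison of pooled values. Dashed lines mark 1.5-fold. Only the P7 points of Aldh1l1 (-0.98) and Slc1a2 (0.71) lie past them.

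Of the 47 further astrocyte genes at P7, 2 were higher and 1 lower in the knockout, with a median of 0.05. The thyroid hormone deiodinase Dio2 (1.14) and the NMDA receptor subunit Grin2c (0.70) were higher, and Pla2g7 (-0.75) was lower. Of the 8 other genes of glutamate uptake none reached the fold, with 3 above 0, 5 below and a median of -0.13. Glul, 1 of the 8, was at 179 and 234 FPKM (0.39). The endfoot channel gene Kcnj10 also stayed under the fold, at 21.0 and 30.9 FPKM (0.54). Aldh1l2, the mitochondrial paralog of Aldh1l1, was at 5.39 and 4.32 FPKM (-0.27). The lincRNA entry antisense to Aldh1l1 was at 0.826 FPKM in the wild type and 0.289 FPKM in the knockout. Of 12 genes that rise in reactive astrocytes, the protease inhibitor Serpina3n was higher in the knockout (5.96 and 14.2 FPKM, 1.13) and Vim was lower (-0.70).

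Markers of brain regions and of other cells moved with genotype at P7. Of 10 genes of cerebellum and hindbrain, 7 were lower in the knockout and none higher, among them Pcp2 (14.7 and 1.48 FPKM, -2.66), Hoxb5 (-2.18), Barhl1 (-1.44) and Zic1 (-1.23), and the summed level of the list was 121 FPKM in the wild type and 52.2 FPKM in the knockout. The defining Purkinje cell gene Pcp2 was thus at about the telencephalon level (1.30 FPKM at E15.5) in the P7 knockout. Of 10 oligodendrocyte genes, 5 were lower in the P7 knockout than in the P7 wild type, with Mbp at 292 FPKM in the wild type and 161 FPKM in the knockout. The summed level of these 10 genes was 686 FPKM in the wild type and 457 FPKM in the knockout. Of 12 radial glia genes, 4 were lower (Pax6 -1.34, Tnc -0.94, Fabp7 -0.85, Vim -0.70), and 3 had differences above 0 (median -0.44). Their summed level was 1229 and 748 FPKM, of which Fabp7 alone made up 919 and 508 FPKM. The neuronal gene Slc17a7, the vesicular glutamate transporter of forebrain neurons, was higher (102 and 187 FPKM, 0.86), while the summed neuronal list was at 3145 and 3153 FPKM. The microglial genes Tmem119 (0.71) and P2ry12 (0.63) were higher as well, with summed levels of 121 and 139 FPKM. Of 11 choroid plexus and ependymal genes 1 was lower, and of 9 endothelial genes none differed. The part of the regions and cell types sampled in the differences of Aldh1l1 and Slc1a2 was not tested.

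**Figure D4:**
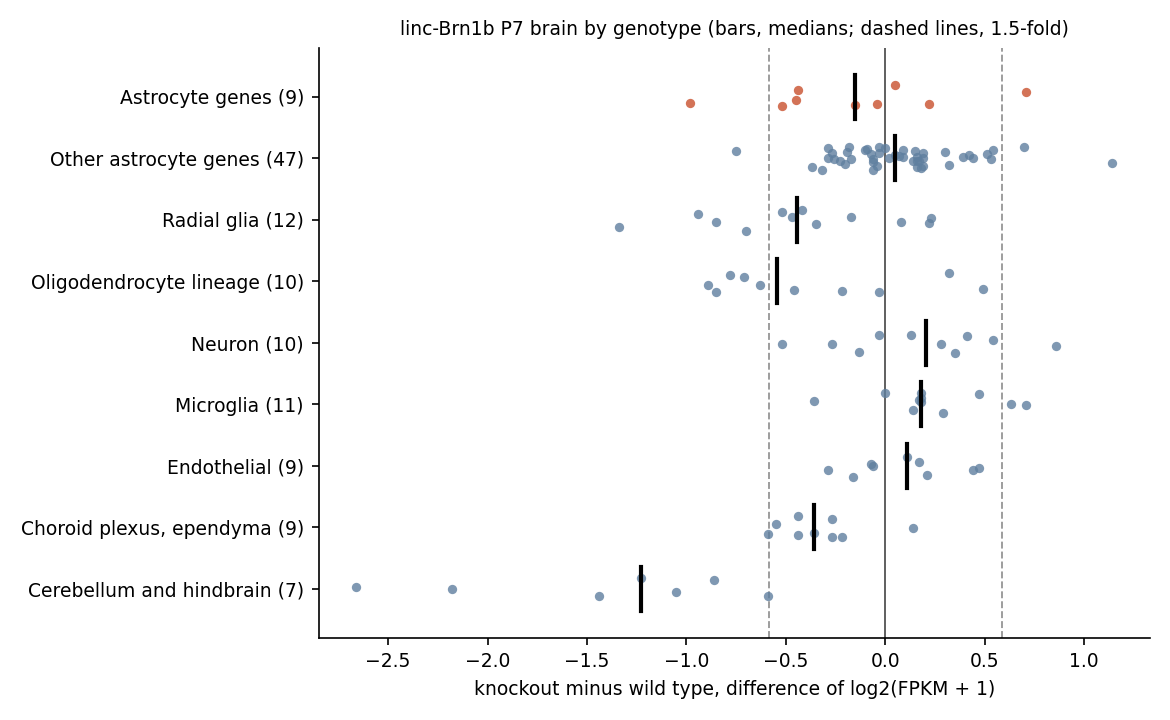
Knockout minus wild type difference of log2(FPKM + 1) in linc-Brn1b P7 brain, 1 point a gene with a mean of at least 1 FPKM (number in brackets), for the 9 astrocyte genes (red) and for lists of other astrocyte genes and of other cell types and regions. Black bars are medians and dashed lines mark 1.5-fold. The genes of the cerebellum and hindbrain list all lie at or beyond the lower line, and the 9 astrocyte genes reach from -0.98 to 0.71.

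In linc-Sox2 brain at E18.5 none of the 9 genes reached the fold, where 0.957% of 14414 genes were higher and 0.666% lower in the knockout. The differences ran from -0.16 (Gja1) to 0.47 (Gfap), with a median of 0.09 beside 0.003 over all genes. Gfap was at 8.50 FPKM in the wild type and 12.1 FPKM in the knockout, Aqp4 at 11.8 and 15.8 FPKM (0.39) and S100b at 2.88 and 3.33 FPKM (0.16). These 3 late genes were thus higher in value in the linc-Sox2 knockout and lower in value in the linc-Brn1b knockout at P7, in each case by less than 1.5-fold. Aldh1l1 was at 26.6 and 28.4 FPKM and Slc1a2 at 16.6 and 16.1 FPKM. Of the 47 further astrocyte genes, the neurotensin receptor gene Ntsr2 was higher (2.27 and 4.87 FPKM, 0.85), with a median of 0.15 over the 45 counted. Among the region markers Hoxb5 was higher (0.611 and 6.63 FPKM) and Pcp2 lower (6.34 and 2.39 FPKM) in the knockout.

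Likeness of pattern was measured over the 6 linc-Brn1b groups as the root-mean-square difference of centred log2(FPKM + 1), where 0 would be the same pattern. Among the 9 genes the closest pair was Gfap and Aqp4 (0.275), followed by S100b and Sparcl1 (0.297) and by Slc1a3 and Aldoc (0.403), and the farthest pair was Gfap and Aldoc (2.334). Distances of genes under 1 FPKM in telencephalon, such as Gfap, Aqp4 and S100b, depend on the pseudocount and were not recomputed with another. As a plain ratio of wild-type FPKM, P7 over E15.5, S100b stood at 172 and Sparcl1 at 13.2, so this pair differed in the size of its rise. Over 10331 genes with a highest value of at least 5 FPKM, the nearest to Gfap were Aqp4, Gpr37l1 (0.448), Mbp (0.578), Nov (0.600) and Ptgds (0.606). The nearest to Aqp4 were Gpr37l1 (0.266), Gfap, Mbp (0.336), Mobp (0.449) and Nov (0.462), so that myelin genes stood among the closest to both.

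The 2 glutamate transporter genes had different neighbours. Nearest to Slc1a2 were Rasgrp1 (0.081), Pmch (0.096), Rasl10a (0.141), Fam107a (0.150) and the potassium channel gene Kcnj16 (0.163), each of which had a higher value in the P7 knockout, by 0.63 to 1.05. Nearest to Slc1a3 were Pcdh11x (0.043), Etv4 (0.063), Clec3b (0.078), the glutamine transporter gene Slc38a3 (0.079) and B3galt5 (0.082), whose P7 genotype differences ran from -0.37 to 0.08. The genotype difference at P7 is part of the pattern by which these genes were found.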

How the data were processed

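RNA of brain and lung from linc-Brn1b, linc-Sox2 and linc-Foxf1a knockout and wild-type mice was sequenced as paired-end reads. Per the study's methods and the submitters' processing notes, the authors used TopHat2 for alignment to mm9, and Cufflinks (2.0.2) with its Cuffdiff2 program for transcripts and expression. The authors deposited FPKM values, 1 a group, pooled over libraries, in 1 table a strain. The tables hold 0 columns of values per library, and no depth, so no test, SD or interval was computed from them. The tables also hold the authors' own fold changes, test statistics, p-values, q-values and calls, which were not used.

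Samples were grouped by the strain, genotype, age and tissue in the labels. FPKM of entries with the same symbol were summed, and differences of log2(FPKM + 1) were taken within a table, for genes with a mean of at least 1 FPKM over the pair of groups. A gene was counted as differing at 1.5-fold (genotypes) or 2-fold (ages). Tables were normalized separately, and no difference was taken between them. The differences and calls were tested on simulated data with known changes, and the summing and the minimum mean were not tested in this way.

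Members and 20 gene lists were chosen with earlier results of these data known. Named genes are the 9 members, list genes past the fold between genotypes, up to 4 of each list with the largest age difference, Stat3, Nfia, Sox9, Notch1, Hes5, Neurog2 and Olig2, and the 5 genes nearest in pattern to Gfap, Aqp4, Slc1a2 and Slc1a3, leaving out predicted, RIKEN and lincRNA names. Glul, Kcnj10 and Aldh1l2 between genotypes, Megf10, Cntf, Ctf1, Lif, Clcf1, Jak1, Nrg1, Gjb2 before P7 and the entries overlapping a member were named outside this rule after their values were seen. Map2, and Xist in linc-Brn1b, were not analysed here.

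Positions are those of GENCODE on NCBIM37, the mm9 assembly. Promoters are those of RefSeq on GRCm38.p6. For the 9 genes, entries on chromosome 18, where Aqp4 lies, were left out, and windows of 7 genes were read. Python 3.11.15, pandas 2.3.3, numpy 2.4.6 and matplotlib 3.10.9 were used. Alternatives covered the pseudocount, the filter, the fold, the scaling and the handling of repeated symbols.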

Additional observations from a re-analysis of the deposited data

How the results depend on the processing

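Under 9 alternatives, 648 values of the 9 genes were recomputed, and 627 kept and 21 changed their call, which needs both the fold and the minimum mean FPKM. The fold itself was moved where calls changed, except for Aldh1l1 under another pseudocount. Gfap, Aqp4 and S100b in telencephalon stayed uncalled through the minimum, but some of their differences passed the fold with another pseudocount. With 0.1 and with none, Gfap at E13.5 went from -0.32 to -1.43 and -2.53 between genotypes, Aqp4 at E15.5 from 0.24 to 0.66 and 0.82, and Gfap from E13.5 to E15.5 in the knockout from 0.53 to 2.02 and 3.27. Without a pseudocount, S100b went from 0.07 to 1.19 between genotypes at E13.5 and from 0.11 to 1.60 from E13.5 to E15.5 in the wild type. No difference past the fold changed direction. Of those under it, 4 changed sign or were rounded to -0.00 or 0.00 after rescaling or centring. They were Aqp4 at E13.5 (-0.06 to -0.00) and Sparcl1 at P7 (-0.04 to 0.00) between genotypes, and Slc1a3 (0.17 to -0.01) and Aldoc (-0.02 to 0.01) between E13.5 and E15.5 in the knockout.

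With a lower log2 difference of 0.32 between genotypes and a fold of 1.5 between ages, 1 of the 9 genes differed at E13.5 (Gja1, lower), 5 at P7 (Slc1a2 higher and Gfap, Aqp4, Aldh1l1 and S100b lower), 2 at E18.5 (Gfap and Aqp4, higher) and 3 between E13.5 and E15.5 in the knockout. With folds of 2 and 4, 0 differed at P7 and 0 between E13.5 and E15.5 in either genotype, and 6 of 9 were higher at P7 than at E15.5 in each genotype. With a pseudocount of 0.1, or none, 2 differed between E13.5 and E15.5 in the knockout, Aldh1l1 being added.

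Counts over all genes moved by more than 1.5 times in several comparisons, and the cause was not tested beyond the construction of each setting. Between genotypes at E13.5, 954 genes differed, with 3035 at the lower and 276 at the higher fold. At E15.5 there were 64, with 101 at a pseudocount of 0.1, 34 at a mean of at least 5 FPKM and 175 at the lower fold. At P7 there were 612, with 1048 at a pseudocount of 0.1, 1129 without one, 332 at a mean of at least 5 FPKM, 2643 at the lower and 138 at the higher fold. At E18.5 there were 234, with 485 at a pseudocount of 0.1, 534 without one, 353 without a filter, 97 at a mean of at least 5 FPKM, 1162 at the lower and 83 at the higher fold. From E13.5 to E15.5, 561 genes differed in the wild type and 638 in the knockout, with 1020 and 1008 at a pseudocount of 0.1, 1084 and 1050 without one, 2264 and 2435 at the lower and 63 and 81 at the higher fold. From E15.5 to P7 there were 3819 and 4119, with 7174 and 7312 at the lower and 734 and 946 at the higher fold.

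No paired analysis was possible because the tables hold 1 pooled value a group, and leaving out a replicate was not possible for the same reason. Depth is unknown, so values under 1 FPKM were given no error.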
